A study of Mus musculus with 16 samples.

Results

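The whole-brain transcriptome of mice given only nicotine (Nicotine-Water, NW) was compared with that of mice given only water (Water-Water, WW). The members of the comparison were chosen by the group labels and not by any measurement. They were 8 of the 16 mice sequenced in the study, 4 NW mice (numbers 7, 8, 10 and 11) and 4 WW mice (numbers 18, 19, 20 and 21). All 16 were female mice of the inbred strain C57BL/6J in adolescence. Each whole brain, with its cerebellum, was taken at postnatal day 45 and made into 1 RNA-seq library. The main bottles of NW mice, offered for 22 h per day over 10 days, held 200 µg/ml nicotine in tap water, and those of WW mice held tap water. Both groups also had short daily sessions with water alone, of 2 h, or 4 h on the final day. On the last 4 days these took the place of the ethanol sessions of the other groups. Those groups, Water-Ethanol and Nicotine-Ethanol, held 4 sequenced mice each and were given 20% v/v ethanol in these sessions. The main bottles of Nicotine-Ethanol mice also held 200 µg/ml nicotine, and those of Water-Ethanol mice held tap water. The main bottles were removed during the sessions. Brains were taken at the end of the final session, so NW mice had then been without nicotine for 4 h. Each brain gave its own library, so each library stands for a separate animal. No regions were dissected, so in these bulk samples fewer cells of a type and less RNA per cell cannot be told apart.

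Nicotine acts on nicotinic acetylcholine receptors, ion channels built from subunits that the Chrna and Chrnb genes encode and that open to acetylcholine in neurons and at the muscle endplate. Neuronal activity switches on immediate early genes such as Fos, Arc and Nr4a1 within minutes, partly through the factor CREB, which binds promoters at cAMP response elements. Libraries of this kind enrich mRNA by its poly-A tail, so ribosomal RNA precursor (Rn45s) and small non-coding RNAs without a tail are carried over only in part, and the base composition of a transcript can affect how well it is amplified and sequenced.

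The 8 libraries held 27378609 to 32880979 counted reads, with overlapping ranges in NW and WW, and none of the 16 libraries repeated another. Marker genes of each tissue were summarized per mouse as the mean log2 CPM (counts scaled to library size) of a list after centering each gene on the 8 mice. Cerebellar markers such as Gabra6 were low in WW mouse 21 (score -1.39) and NW mouse 10 (-0.821), against 0.254 to 0.459 in the other 6 mice. Pituitary markers were high in NW mouse 10 (2.12) and WW mouse 19 (0.551), where the hormone genes Gh and Prl had 174 and 244 normalized counts in mouse 10. Skeletal muscle and bone markers were high in NW mouse 7 (1.65), and olfactory epithelium markers in WW mouse 20 (1.34). Exact permutation tests of the 16 lists gave a smallest adjusted p of 0.457, which is also the least that 1 fully separated list can reach with 4 against 4 mice, so they do not show that the lists were alike. The labelled tissue was present in every library, with 24150 to 27380 normalized counts of Slc17a7, a vesicular glutamate transporter of excitatory neurons, in the 8 mice.

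No gene differed between NW and WW at an adjusted p-value under 0.05. Of 15344 genes with enough reads, edgeR's quasi-likelihood test with Benjamini-Hochberg adjustment called 0 (0%), and its smallest adjusted p-value was 0.207. At an unadjusted p-value under 0.05 stood 1295 genes, of which 996 (6.49% of the genes tested) were lower in NW and 299 (1.95%) were higher. Lower genes thus made up 76.9% of the 1295 (95% Wilson interval 74.5 to 79.1, which treats genes as independent and covers counting error only). With upper quartile scaling the lower share was 63.2%, and with the Rn45s level of each mouse as a covariate it was 57.2%. The median log2 fold change over all genes was 0.01. In 671 genes (4.37%) every NW mouse lay below every WW mouse, and in 276 (1.8%) above. Other tests on the same counts placed the threshold differently. DESeq2 called 123 genes, all lower in NW (1139 at unadjusted p under 0.05), edgeR's likelihood-ratio test called 113 (1186), limma-voom 0 (1315), and a quasi-likelihood fit of all 16 mice 112 (1838).

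The genes lower in NW were poor in G and C. Their transcripts had a median GC content of 43.9%, against 50.9% over all genes tested and 55.3% in the genes higher in NW. Coding stretches of 1 gene from each side are printed to show what such compositions look like, with G and C in capitals. Each was chosen as a window with GC content closest to the gene's own transcript mean, so its value follows from that choice. Ythdf3, a reader of methylated adenosine in mRNA, was among the 8 lower genes with the smallest p. Serinc2, a serine incorporator family member, was among the 8 such higher genes. Both stretches are 120 bases of a coding exon on GRCm38, Ythdf3 exon 5 at chr3:16203880-16203999 on the plus strand (43.3% GC) and Serinc2 exon 3 at chr4:130265070-130265189 on the minus strand (59.2% GC).
Ythdf3: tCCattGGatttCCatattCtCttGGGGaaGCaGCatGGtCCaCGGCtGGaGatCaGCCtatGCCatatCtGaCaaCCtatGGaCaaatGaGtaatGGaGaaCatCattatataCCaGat
Serinc2: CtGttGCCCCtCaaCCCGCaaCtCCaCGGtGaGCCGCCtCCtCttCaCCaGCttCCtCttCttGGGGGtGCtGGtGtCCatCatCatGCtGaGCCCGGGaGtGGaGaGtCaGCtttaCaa

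Sorted by GC content, the medians followed a gradient. The 378 genes under 40% GC had a median log2 fold change of -0.14, and 37.6% of them were lower at unadjusted p under 0.05. Among the 2292 genes from 40 to 45% GC the median was -0.08, with 20.0% lower. In the 3302 genes from 55 to 60% GC it was 0.06, with 3.88% higher, and above 60% GC it was also 0.06, with 3.22% higher. Across 15061 genes with a GC value, which are not independent replicates, Pearson's r of fold change and GC content was 0.346 and Spearman's rho 0.465. Longer transcripts had lower fold changes, with r = -0.178 for the log2 of transcript length.

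**Figure D1:**
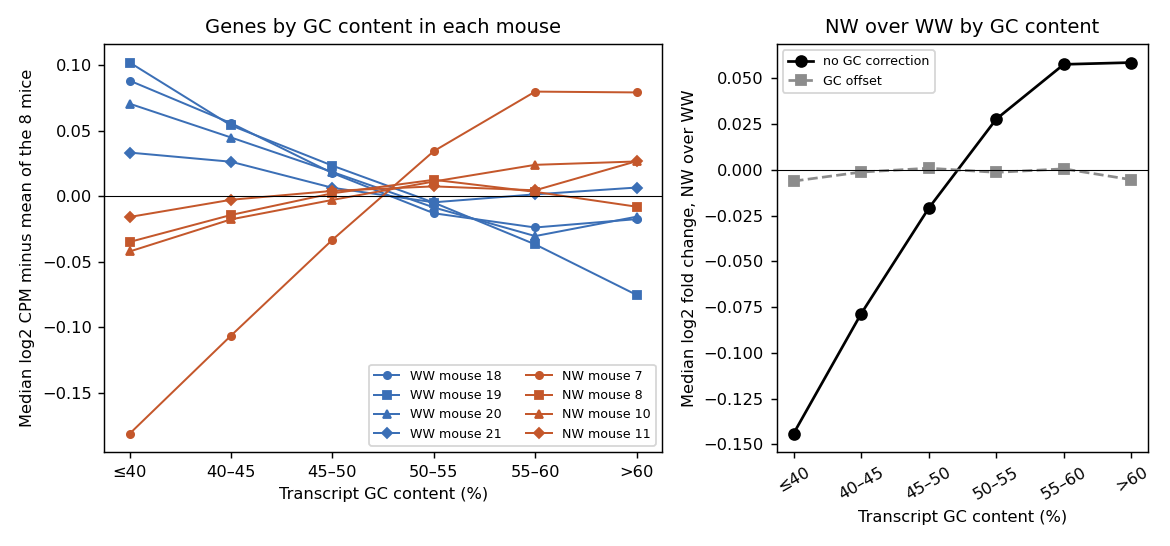
Expression by transcript GC content. Left, the median over genes of log2 CPM minus the mean of the 8 mice (y axis) in classes of GC content (x axis, %), 1 line per mouse. Right, the median log2 fold change of NW over WW in the same classes without correction (black) and with a per-mouse GC offset (grey). Under 45% GC every WW line lies above 0 and every NW line below 0, NW mouse 7 lowest, and the median goes from -0.14 in the lowest class to 0.06 in the highest, and stays between -0.01 and 0.00 with the offset.

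The gradient was measured in each mouse as the slope of its centred log2 CPM on GC content, per 10 percentage points. The WW slopes were -0.0433, -0.0653, -0.0399 and -0.0174 in mice 18, 19, 20 and 21. In NW they were 0.121, 0.00812, 0.0255 and 0.0115 in mice 7, 8, 10 and 11. Every NW slope was above every WW slope, and mouse 7 stood well above the other 3 NW mice. The means were 0.0415 ± 0.0534 in NW and -0.0415 ± 0.0196 in WW (SD, n = 4), a difference of 0.0829 with p = 0.0286 by an exact two-sided permutation test, the smallest p that 4 against 4 mice allow. Without mouse 7 the difference was 0.0565, and 3 against 4 mice cannot give a p below 0.0571. When slopes were taken over all 16 mice, the 4 WW mice were the 4 lowest.

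An offset that removes each mouse's smooth dependence on GC content left the direction but fewer genes. With it 586 genes (3.82%) were lower and 222 (1.45%) higher at unadjusted p under 0.05, 808 in all, so 72.5% were lower, and 0 passed the adjustment. Of these, 620 had also passed the unadjusted threshold without the offset in the same direction, which is 47.9% of the 1295 and 76.7% of the 808. DESeq2's 123 calls had a median GC content of 43.0%. Their median log2 fold change went from -0.30 to -0.23 with the offset, and 115 of them had an unadjusted p under 0.05 there. Of the 123, 118 had a GC value, and the offset did not correct the others.

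Rn45s, the precursor of the large ribosomal RNAs, varied widely among the NW mice. It took 1.37%, 0.729%, 3.90% and 0.414% of the counted reads in NW mice 7, 8, 10 and 11. In WW mice 18, 19, 20 and 21 it took 0.363%, 0.274%, 0.355% and 0.467%, and in the 8 mice of the other groups 0.318 to 0.617%. Mice 7, 8 and 10 were above all WW mice and mouse 11 was within their range. The groups differed by 1.65 on the log2 CPM scale (p = 0.0571, exact two-sided permutation test), or by 1.06 without mouse 10. The FPKM table of the authors gave Rn45s as 651, 491, 636 and 837 in the WW mice, 2433, 1305 and 741 in NW mice 7, 8 and 11, and listed it at 0 in mouse 10, the mouse with its highest count.

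**Figure D2:**
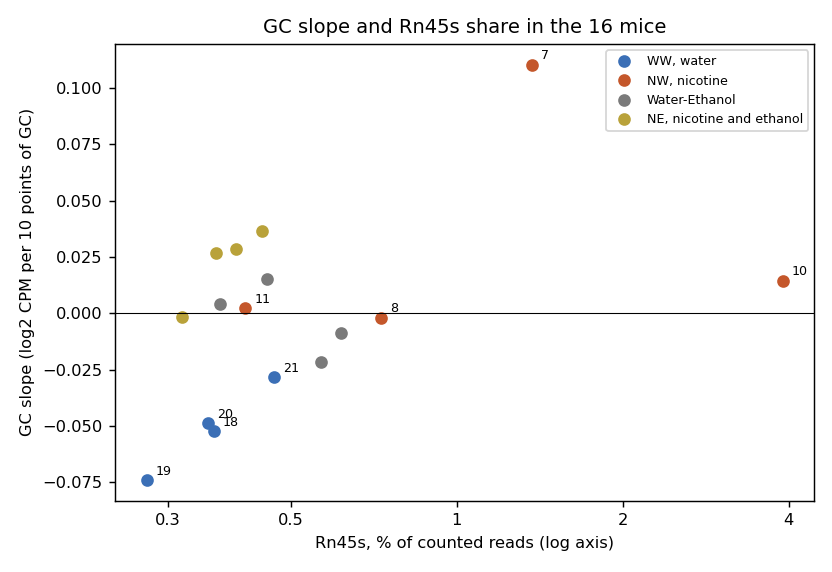
GC slope against the Rn45s level in all 16 mice. Each point is 1 mouse, with the share of counted reads taken by Rn45s on a logarithmic x axis (%) and the slope of log2 CPM on GC content per 10 percentage points on the y axis. The 4 WW mice lie lowest, NW mouse 7 highest, and NW mouse 10 farthest right at 3.90%.

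The mouse with the most Rn45s was not the mouse with the steepest GC slope. Mouse 10 had 3.90% Rn45s and a slope of 0.0255, and mouse 7 had 1.37% and 0.121. Over 16 mice the log2 Rn45s level and the GC slope gave Pearson's r = 0.460 (permutation p = 0.0878, adjusted 0.176) and Spearman's rho = 0.365 (permutation p = 0.167). Without the 2 mice farthest from the median Rn45s level r was 0.289. With group means removed r was 0.265 (permutation p = 0.275, adjusted 0.275) and rho 0.474 (p = 0.0667, permutation test), and r was 0.555 without the 2 farthest mice. The part of either measure in the gene differences was not tested beyond the fits given here.

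Of the 8 higher genes with the smallest p, 5 encode ribosomal or small non-coding RNAs. Rmrp, the RNA of the ribosomal RNA processing enzyme RNase MRP, had 25.1, 12.6, 27.6 and 32.8 normalized counts in WW and 150, 68.2, 190 and 26.4 in NW, in the order of mouse numbers above. Rpph1, the RNA of RNase P, which trims transfer RNA precursors, had 19.6, 18.4, 18.7 and 45.5 in WW and 134, 77.9, 207 and 26.4 in NW. In both, mice 7, 8 and 10 were above all WW mice and mouse 11 was not. The log2 fold changes were 2.13 ± 0.53 for Rmrp and 2.11 ± 0.54 for Rpph1 (± SE), with adjusted p-values of 0.253 and 0.262 in the quasi-likelihood test.

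Snord15b and Snord22 are C/D box small nucleolar RNAs, a class of which many members guide the methylation of ribosomal RNA. They lie in introns of Rps3 and of the non-coding gene Snhg1. Snord15b had 5.45, 1.94, 2.95 and 9.53 normalized counts in WW and 35.4, 21.1, 82.9 and 19.1 in NW, so the groups did not overlap (log2 fold change 2.96 ± 0.61, adjusted p = 0.224 in the quasi-likelihood test). Snord22 had 8.72, 9.68, 10.8 and 11.7 in WW and 34.4, 15.4, 37.6 and 11.8 in NW, with its lowest NW value, in mouse 11, just above the highest WW value. Mir6236 and Mir124a-2 are annotated as miRNA genes. Such libraries do not count the mature RNA, and which RNA the reads at these genes came from was not tested. Mir6236 had 782, 1086, 990 and 931 counts in WW and 1922, 1576, 3888 and 1269 in NW. Mir124a-2 had 6.54, 8.71, 9.85 and 13.8 in WW and 20.1, 18.3, 22.1 and 10.0 in NW. Mouse 10 was the highest and mouse 11 the lowest NW mouse in all of these RNAs, as it was for Rn45s. With the Rn45s level as a covariate the log2 fold changes were 0.58 for Rmrp, 0.52 for Rpph1, 0.30 for Snord22, 0.28 for Mir6236, 0.32 for Mir124a-2 and 1.54 for Snord15b.

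The sequences of the RNA with the largest fold change and of the miRNA are printed because genes annotated for such RNAs led the higher side. Snord15b is given whole, from the minus strand of GRCm38 at chr7:99479563-99479707, with its C box (TGATGA) and D box (CTGA) in capitals. The mature miRNA of Mir6236 is from RefSeq on GRCm38.p6, chr9:110281353-110281371 on the plus strand, with its seed (bases 2 to 8) in capitals.
Snord15b: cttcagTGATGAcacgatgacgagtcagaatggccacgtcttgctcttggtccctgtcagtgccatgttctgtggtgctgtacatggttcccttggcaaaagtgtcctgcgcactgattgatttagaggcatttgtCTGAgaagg
mmu-miR-6236: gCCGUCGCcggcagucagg

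As a class, 18 small nucleolar RNA genes were tested, with a median log2 fold change of 0.18. Of these 2 (11.1%) were higher at unadjusted p under 0.05 and 0 lower, against 1.95% higher and 6.49% lower over all genes. For the 23 miRNA genes tested the median was 0.17, again with 2 (8.70%) higher and 0 lower. With the Rn45s level as a covariate both medians were below 0, at -0.08 and -0.05.

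**Figure D3:**
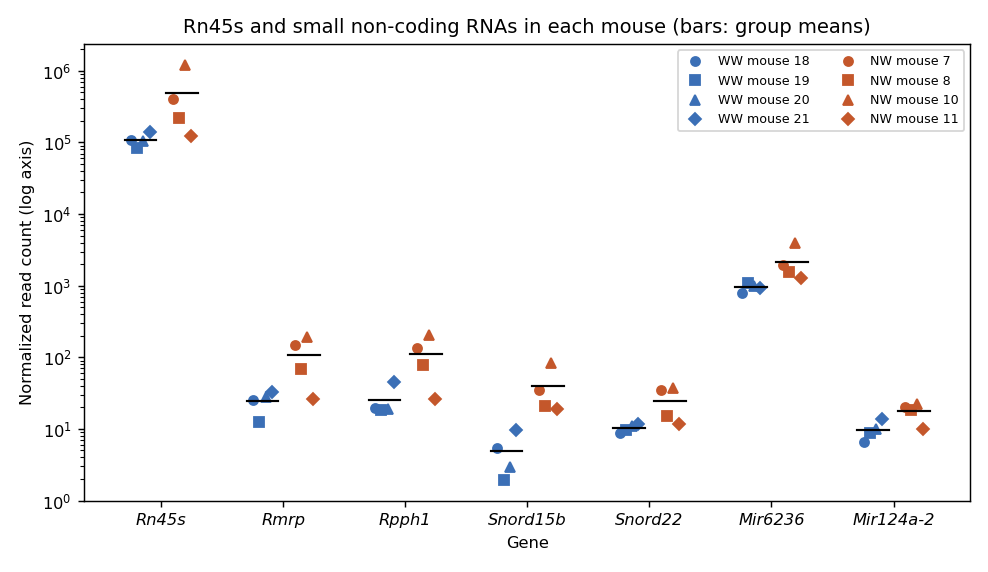
Normalized read counts of Rn45s and 6 small non-coding RNA genes (logarithmic y axis) in each WW and NW mouse, with the group mean as a black line. NW mouse 10 is the highest point of every gene and NW mouse 11 lies near or within the WW values in most of them.

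The lower genes with the smallest p had moderate counts and small differences. H3f3a, which encodes the histone variant H3.3, had 4773, 4683, 4357 and 4366 normalized counts in WW and 3561, 3763, 3561 and 3921 in NW (log2 fold change -0.30 ± 0.05). Near-identical copies of H3f3a exist, so its count is uncertain. Ythdf3 had 3413, 3547, 3264 and 3405 in WW and 2212, 2660, 2712 and 2843 in NW (-0.39 ± 0.07). Tmed5, a cargo receptor of the early secretory pathway, had 1541, 1590, 1462 and 1373 in WW and 884, 1075, 1091 and 1201 in NW (-0.49 ± 0.08). In all 3 every NW mouse was below every WW mouse, and the adjusted p-value was 0.207 in the quasi-likelihood test. The largest change among these genes was in the unnamed transcript 2900056M20Rik on the X chromosome, with 1576, 1548, 1350 and 1467 counts in WW and 726, 1052, 984 and 1078 in NW (-0.63 ± 0.11). NW mouse 7 was the lowest of the 8 mice in Ythdf3, Tmed5 and 2900056M20Rik.

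The same group held Sp3, a transcription factor of GC boxes, with 2306 ± 64.9 normalized counts in WW and 1855 ± 126 in NW (SD, n = 4). It also held Sypl, a synaptophysin-like vesicle protein (1917 ± 114 and 1565 ± 45.6), and Cpox, an enzyme of heme synthesis (1682 ± 39.2 and 1385 ± 75.5). Styx, a catalytically inactive phosphatase, had 693 ± 42.4 and 523 ± 42.6. Exons of Sp3 and Styx overlap genes on the other strand (Sp3os and Gnpnat1), whose reads cannot be told apart without strand. Cnot6l, a deadenylase that shortens poly-A tails, had 2520 ± 145 in WW and 1948 ± 190 in NW, and the ubiquitin ligase gene Rnf149 811 ± 18.3 and 678 ± 14.6. These 10 genes were called by DESeq2, by the likelihood-ratio test and in the fit of all 16 mice. With the GC offset, 8 of the 10 made up the lower genes with the smallest p. Among these 8, 2900056M20Rik has no GC value, so the offset did not correct it. The change of H3f3a (GC content 53.1%) with the offset was -0.33, and that of Sp3 (39.4%) was -0.19.

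The other 3 of the 8 higher genes with the smallest p were Serinc2, Gm17821 and 2210039B01Rik. Serinc2 had 172, 167, 185 and 164 normalized counts in WW and 237, 214, 228 and 199 in NW, without overlap (log2 fold change 0.35 ± 0.09, adjusted p = 0.257 in the quasi-likelihood test). Gm17821, a processed pseudogene, had 134 ± 15.9 in WW and 190 ± 28.9 in NW (SD, n = 4). The clone transcripts 2210039B01Rik and A130077B15Rik had means of 10.5 and 172 in WW and 22.0 and 221 in NW. With the GC offset Gm20594, whose transcript is poor in GC, came among the higher genes with the smallest p, and its log2 fold change went from 0.62 to 0.81.

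The 3 largest lower changes at unadjusted p under 0.05 without overlap lay in genes with few reads. Cass4, a Cas family scaffold of focal adhesions, had 17.4, 18.4, 15.8 and 14.8 normalized counts in WW and 7.65, 7.69, 14.4 and 2.73 in NW (log2 fold change -1.07 ± 0.36). Gdpd4, a glycerophosphodiester phosphodiesterase family gene, had 17.4 ± 4.37 and 8.60 ± 1.70, and the integrin gene Itgad 14.8 ± 3.74 and 7.63 ± 2.75 (SD, n = 4). Their adjusted p-values were 0.306 to 0.420 in the quasi-likelihood test. Itgad shares exon sequence with 4931431B13Rik and Cox6a2 on the other strand.

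The receptors that bind nicotine stood close to the water level. Of 16 nicotinic receptor subunit genes 12 had enough reads, and their median log2 fold change was 0.01, the same as over all genes. The subunits of the main brain receptor type are Chrnb2, with 2476, 2397, 2349 and 2296 normalized counts in WW and 2544, 2583, 2463 and 2400 in NW, and Chrna4, with 1440, 1475, 1479 and 1518 in WW and 1590, 1479, 1588 and 1538 in NW. In both genes the groups overlapped, and exons of Chrnb2 overlap Adar on the other strand. Chrna7, the subunit of homomeric receptors, had 413 ± 37.6 in WW and 378 ± 40.1 in NW (log2 fold change -0.13 ± 0.09). The habenular and midbrain subunits Chrna3, Chrna5 and Chrna6 had means of 96.2, 84.0 and 100 in WW and 87.0, 74.0 and 86.8 in NW, with log2 fold changes of -0.14, -0.18 and -0.21. Chrna2 had 27.2 ± 6.02 and 32.3 ± 7.44, a log2 fold change of 0.25. None of these 7 had an unadjusted p under 0.05. For Chrnb3 the means were 96.2 and 95.0, for Chrnb4 42.1 and 42.7, for Chrnb1 29.6 and 30.9, and for Chrna10 13.1 and 13.4, in WW and NW.

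Chrna1, the subunit of muscle receptors, was the only subunit with an unadjusted p under 0.05. It had 9.81, 7.74, 7.88 and 8.47 normalized counts in WW and 15.3, 15.4, 15.5 and 10.9 in NW, without overlap (log2 fold change 0.74 ± 0.25, adjusted p = 0.449 in the quasi-likelihood test). The muscle myosin genes Myh4 and Myh1 were highest in mouse 7, with 172 and 145 counts against 2.90 to 33.1 and 7.88 to 17.7 in the other 7 mice. Chrna1 was as high in mice 8 and 10 as in mouse 7. The part of muscle tissue in the Chrna1 values was not tested. Among 8 chaperones and modulators of these receptors, Lypd6b alone was past the unadjusted threshold, with 324 ± 26.8 in WW and 365 ± 10.6 in NW. The toxin-like modulators Lynx1 and Ly6e had means of 12230 and 3882 in WW and 12740 and 4097 in NW. Among 10 genes of cholinergic neurons and muscarinic receptors, 0 passed it.

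Immediate early genes were low in NW mice 7 and 8 and at the water level in mice 10 and 11. Of 40 tested, 33 had a negative log2 fold change, against 46.4% of all genes, with a median of -0.15. At unadjusted p under 0.05, 2 (5%) were lower and 0 higher, against 6.49% lower and 1.95% higher over all genes. In 0 were the groups apart, against 4.37% of all genes apart and lower and 1.8% apart and higher. Arc, a regulator of AMPA receptor traffic, had 5657, 5543, 4865 and 6179 normalized counts in WW and 3018, 1257, 6143 and 6066 in NW. Egr2, a zinc finger transcription factor, had 309, 340, 244 and 321 in WW and 162, 112, 264 and 272 in NW. Fos had 1002, 1001, 856 and 943 in WW and 664, 381, 973 and 975 in NW. In each of them mice 7 and 8 were below all WW mice, and mice 10 and 11 lay within the WW range. The log2 fold changes were -0.43 ± 0.36 for Arc, -0.59 ± 0.23 for Egr2 and -0.35 ± 0.22 for Fos, with adjusted p-values of 0.772, 0.522 and 0.704 in the quasi-likelihood test.

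The pattern held over the list. Relative to the WW mean of each gene, the median log2 value over the 40 genes was -0.277 in mouse 7 and -0.357 in mouse 8, with 36 and 37 genes below 0. In mice 10 and 11 it was 0.071 and 0.021. The WW mice themselves lay between -0.040 and 0.089, and the 8 mice of the other groups between -0.071 and 0.113. Of the 16 mice, mouse 8 had the lowest value in 24 of the 40 genes and mouse 7 in 11. Klf10, a growth factor response gene and the other member past the unadjusted threshold, had 967 ± 68.2 in WW and 800 ± 137 in NW (SD, n = 4). Dusp6, a phosphatase of the MAP kinase ERK, had 1892, 1871, 1929 and 2121 in WW and 1350, 1187, 1989 and 1843 in NW. The GC content of the 40 transcripts was high (median 55.2%), and with the GC offset the median fold change was -0.19. With the offset 4 were lower and 0 higher at unadjusted p under 0.05, against 3.82% and 1.45% of all genes. Rn45s was at 1.37% in mouse 7, 0.729% in mouse 8, 3.90% in mouse 10 and 0.414% in mouse 11. With the Rn45s level as a covariate the median of the list was -0.24. The part of Rn45s or of GC content in these values was not tested beyond these fits.

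**Figure D4:**
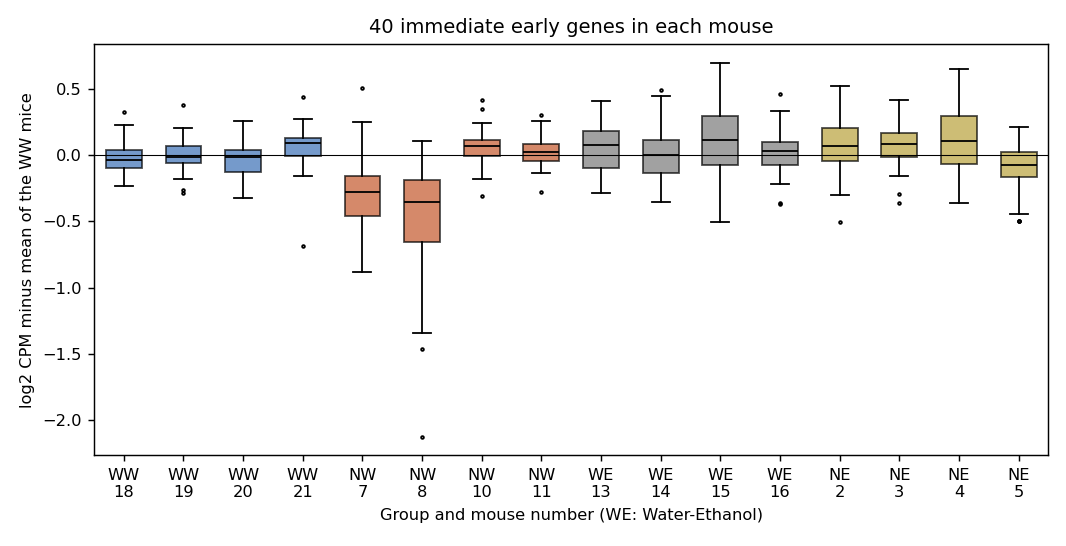
Immediate early genes in all 16 mice. Boxes show the quartiles and median over 40 genes of log2 normalized counts relative to the WW mean of each gene (y axis), whiskers reach the farthest value within 1.5 box lengths, and dots are genes beyond them, for each mouse by group (x axis). The medians are -0.277 and -0.357 in NW mice 7 and 8 and between -0.071 and 0.113 in the other 14 mice.

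Promoters of 2 of these genes are printed because the list moved together in mice 7 and 8. Each is the 120 bases before the RefSeq start on GRCm38.p6, Fos at chr12:85473770-85473889 and Nr4a1 at chr15:101266726-101266845, both on the plus strand. Capitals mark TGACG, the core of the cAMP response element, read on either strand (CGTCA on the other).
Fos promoter: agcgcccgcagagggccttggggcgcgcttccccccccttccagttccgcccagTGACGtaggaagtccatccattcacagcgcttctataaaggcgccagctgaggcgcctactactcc
Nr4a1 promoter: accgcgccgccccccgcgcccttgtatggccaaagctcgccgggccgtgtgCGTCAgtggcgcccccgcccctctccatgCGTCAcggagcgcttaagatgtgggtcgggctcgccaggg

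Promoters were found for 31 of the 40 genes. In the 250 bases before the start TGACG was present on either strand in 21 of them (67.7%), against 29.2% of the 11417 genes tested that had a promoter sequence. The full palindrome TGACGTCA, which contains the shorter motif, was in 4 (12.9%) against 2.93%. A match of letters does not show that a factor bound there. Nr4a1, an orphan nuclear receptor, had 2582, 2307, 1972 and 2684 normalized counts in WW and 1537, 847, 2750 and 2404 in NW, with mice 7 and 8 again the lowest.

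CREB pathway genes beside these showed 3 members (10.3%) lower at unadjusted p under 0.05 and 0 higher among 29 tested, against 6.49% lower and 1.95% higher over all genes, with a median log2 fold change of 0.01. Creb1, which encodes CREB itself, had 2829, 3067, 3095 and 2814 normalized counts in WW and 2030, 2597, 2520 and 2701 in NW, without overlap (-0.26 ± 0.08, adjusted p = 0.348 in the quasi-likelihood test). Prkar2b, a regulatory subunit of protein kinase A, had 2820 ± 166 and 2485 ± 280, and Crem, a CREB relative, 514 ± 30.2 and 444 ± 60.4 (SD, n = 4). In all 3 the lowest mouse was mouse 7. After the GC offset Creb1 alone stayed under the unadjusted threshold. The growth factor gene Bdnf had 1051 ± 22.4 and 939 ± 146.

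Stress axis genes were measured for 17 of 22 listed peptides and receptors, with a median log2 fold change of 0.00. At unadjusted p under 0.05, 2 (11.8%) were higher and 0 lower, against 1.95% higher and 6.49% lower over all genes. Avp, the vasopressin gene, had 186, 147, 177 and 203 normalized counts in WW and 215, 188, 296 and 293 in NW, and the ranges overlapped through mouse 8. Pomc, the precursor of ACTH and beta-endorphin, had 26.2, 31.9, 28.6 and 30.7 in WW and 49.7, 40.4, 86.2 and 33.7 in NW, without overlap. Their log2 fold changes were 0.48 ± 0.16 and 0.82 ± 0.28 (± SE), with adjusted p-values of 0.394 and 0.420 in the quasi-likelihood test, and 0.37 and 0.07 with the Rn45s level as a covariate. The highest Pomc value was that of mouse 10, which also had the pituitary hormones Gh and Prl. The other 3 NW mice had 0 counts of Gh and Prl. WW mouse 19, with 11.6 counts of Gh and 48.4 of Prl, had 31.9 of Pomc. The part of pituitary tissue or of Rn45s in the Pomc values was not tested. Over the 9 pituitary markers 3 were expressed enough for a score, and their summed level ran from 463 to 493 CPM in NW and 416 to 501 in WW, nearly all of it Chgb, a granin that neurons express too, while Fshb and Pou1f1 had 0 counts in all 8 mice. The mineralocorticoid receptor gene Nr3c2 had 1289 ± 38.5 in WW and 1207 ± 35.1 in NW. Among 15 glucocorticoid-responsive genes 0 were past the unadjusted threshold, with a median of -0.02.

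GABA-A receptor subunits, the chloride channels of fast inhibition, had negative log2 fold changes in 15 of 16 genes, against 46.4% of all genes, with a median of -0.10. Of these 3 (18.8%) were lower and 1 (6.25%), Gabrd, higher at unadjusted p under 0.05, against 6.49% lower and 1.95% higher over all genes. Gabrg1 had 1339, 1367, 1284 and 1356 normalized counts in WW and 1138, 1112, 1063 and 1288 in NW. Only the highest NW mouse, mouse 11, reached the WW range. Gabrr2, a rho subunit, had 34.1 ± 3.88 and 24.3 ± 3.21 (SD, n = 4), without overlap. Transcripts of the group were AT-rich (median GC 45.9%). With the GC offset its median was -0.04 with 1 lower and 0 higher, and the change of Gabrg1 (35.6% GC) went from -0.22 to -0.03. Gabrb2, a beta subunit, had means of 16250 in WW and 14570 in NW. WW mouse 21, with low cerebellar markers, was the lowest WW mouse.

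Other transmitter genes gave single members past the unadjusted threshold. Among 18 ionotropic glutamate receptor subunits it was Gria2, an AMPA receptor subunit (21900 ± 1399 in WW and 19530 ± 2125 in NW, SD, n = 4). Among 7 metabotropic receptors it was Grm5 (8549 ± 276 and 7588 ± 913). Both had overlapping groups and a log2 fold change of -0.17. Of 12 dopamine genes only Slc18a2, the vesicular monoamine transporter, passed it, with 498 ± 30.8 and 442 ± 29.1. The dopamine synthesis gene Th had 480 ± 54.7 and 497 ± 42.5, and the receptor gene Drd2 549 ± 58.8 and 568 ± 32.0. Penk, the enkephalin precursor, was the only 1 of 21 neuropeptide genes, with 5122, 5484, 5614 and 5639 in WW and 5790, 5690, 6006 and 5908 in NW, apart but by a log2 fold change of 0.10. With the GC offset Gria2, Grm5, Slc18a2 and Penk were no longer past the unadjusted threshold. Their log2 fold changes were then -0.09, -0.15, -0.12 and 0.05. Of 9 nicotine-metabolizing enzymes expressed in these brains 0 were past it.

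Genes of TGF-beta and bone morphogenetic protein signaling had 6 of 29 members (20.7%) lower at unadjusted p under 0.05 and 0 higher, against 6.49% and 1.95% of all genes. All 6 were receptors or a SMAD: Bmpr2, Tgfbr1, Bmpr1b, Bmpr1a, Smad1 and Acvr1c. Bmpr2, the type II receptor, had 11150, 10930, 10880 and 9901 normalized counts in WW and 7446, 9378, 8670 and 9472 in NW, without overlap (log2 fold change -0.29 ± 0.07). Tgfbr1 had 1179 ± 37.2 and 1013 ± 120, and Bmpr1b 1022 ± 42.5 and 887 ± 90.1 (SD, n = 4). The median of the list was -0.05 without and -0.06 with the GC offset, and 5 members stayed lower at unadjusted p under 0.05 with it. Bmpr2 was at -0.17 there. DESeq2 called Bmpr2.

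Protocadherins outside the genomic clusters, adhesion proteins of neurons, had 6 of 12 members (50%) lower and 0 higher at unadjusted p under 0.05, against 6.49% lower and 1.95% higher over all genes, with a median log2 fold change of -0.15. Pcdh10 had 8215, 8037, 8136 and 8495 normalized counts in WW and 6112, 7251, 7725 and 7380 in NW, without overlap. Its exons overlap 1700027H10Rik on the other strand. Pcdh17 had 4795 ± 109 and 4321 ± 359, and Pcdh11x 1012 ± 27.5 and 899 ± 83.7 (SD, n = 4). NW mouse 7 was the lowest mouse in all 3. The 56 clustered protocadherins had 2 lower and 1 higher and a median of 0.00. With the GC offset 1 of the 12 stayed lower, with a median of -0.07.

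Splicing factors of the SR and hnRNP families had 9 of 31 (29.0%) lower and 1 (3.23%) higher at unadjusted p under 0.05, against 6.49% lower and 1.95% higher over all genes, with a median log2 fold change of -0.06 (-0.01 with the GC offset, 5 lower and 2 higher). Hnrnpll had 1975, 1912, 1842 and 1938 normalized counts in WW and 1619, 1654, 1684 and 1779 in NW, and Srsf1 7330, 6638, 6658 and 6886 in WW and 5805, 5805, 6497 and 6265 in NW. Neither overlapped. Hnrnpa0, a GC-rich member (55.4%), had 4665 ± 270 and 4044 ± 239 (SD, n = 4), and its log2 fold change was -0.21 without and -0.25 with the offset. Among 346 Zfp zinc finger genes 29 (8.38%) were lower and 6 (1.73%) higher, shares near those of all genes, with Zfp367, Zfp874b and Zfp326 at the smallest p and log2 fold changes of -0.26, -0.28 and -0.24.

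Clock genes had 3 of 18 (16.7%) lower and 1 (5.56%) higher, against 6.49% lower and 1.95% higher over all genes. Nr1d1, the repressor REV-ERB alpha, had 1770, 1825, 1682 and 1824 normalized counts in WW and 2173, 1909, 2015 and 1935 in NW, without overlap (log2 fold change 0.18 ± 0.05). Clock, an activator of the same loop, had 4767 ± 55.9 and 4258 ± 332 (SD, n = 4), also without overlap, and Rorb 1592 ± 90.4 and 1411 ± 102. Under the GC offset Nr1d1 was at 0.12 and stayed past the unadjusted threshold, and Clock was at -0.07 and did not. Of the 18 clock genes 0 were then lower and 1 higher, against 3.82% and 1.45% of all genes. Heat shock and unfolded protein genes had negative values in 21 of 28, against 46.4% of all genes, and a median of -0.06. Of these 2 (7.14%) were lower at unadjusted p under 0.05, close to the 6.49% of all genes. Those were Dnajb9, a chaperone partner of the endoplasmic reticulum (1770 ± 59.6 and 1423 ± 134), and the cold-inducible RNA-binding gene Rbm3 (2009 ± 255 and 1633 ± 51.2), whose exons overlap Rbm3os on the other strand. Dnajc3 had 3442 ± 151 and 3059 ± 391.

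Genes for ribosomal proteins and respiration leaned the other way by small amounts. Of 80 cytosolic ribosomal protein genes 6 had a negative log2 fold change, with a median of 0.05 over the list, 4 (5%) higher at unadjusted p under 0.05 and 0 lower, against 6.49% lower and 1.95% higher over all genes. Rpl37a had 2626, 2697, 2644 and 2784 normalized counts in WW and 3025, 2923, 2832 and 2836 in NW, without overlap, and Rpl23 had 4355 ± 214 and 4703 ± 101 (SD, n = 4). Processed copies of such genes make their counts uncertain. Of 83 nuclear genes of oxidative phosphorylation 13 were negative, with a median of 0.05, 5 higher (6.02%) and 0 lower, beside the same shares of all genes. Atp5sl had 868, 908, 970 and 945 in WW and 1068, 1057, 1009 and 1090 in NW, and Cox6a1, a subunit of cytochrome c oxidase, 4244 ± 277 and 4632 ± 77.4. The medians with the GC offset were 0.04 and 0.03. Mean centred log2 CPM over the ribosomal list was -0.066, -0.040, -0.051 and 0.047 in the WW mice and 0.075, 0.027, -0.013 and 0.022 in the NW mice, so the groups overlapped. Mitochondrial ribosomal proteins had 2 higher and 1 lower of 74, Mrpl23 (374 ± 7.86 and 436 ± 27.7) and Mrps14 (982 ± 28.5 and 866 ± 40.4) among them.

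Among transporters, 13 of 289 solute carriers (4.50%) were lower and 6 (2.08%) higher at unadjusted p under 0.05, shares at or below the 6.49% and near the 1.95% of all genes. Slc7a11, the cystine-glutamate exchanger, had 2443, 2448, 2726 and 2879 normalized counts in WW and 2105, 2218, 2149 and 2368 in NW, without overlap (log2 fold change -0.25 ± 0.06). Slc35b2, a transporter of the sulfate donor into the Golgi, had 520 ± 30.4 and 611 ± 25.8 (SD, n = 4). Igf1, insulin-like growth factor 1, had 523 ± 27.5 and 418 ± 58.8, with 330 in mouse 7 and 444 to 454 in the other NW mice.

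The study's own Blue module, a set of co-expressed genes, had negative values in nearly all of its genes. The study built it from these same 16 mice, so its direction is not independent evidence. Of its 733 genes tested, 731 had a negative log2 fold change, against 46.4% of all genes, and the median was -0.15. At unadjusted p under 0.05, 413 (56.3%) were lower and 0 higher, against 6.49% and 1.95% of all genes. The module held 87 of DESeq2's 123 calls. Its transcripts had a median GC content of 44.0%, and with the GC offset the median fold change was -0.10. With the offset 237 were lower and 0 higher at unadjusted p under 0.05, against 3.82% and 1.45% of all genes. The mean centred log2 CPM over the module was 0.095, 0.113, 0.078 and 0.051 in the WW mice and -0.222, -0.046, -0.075 and 0.006 in the NW mice, lowest in mouse 7 and closest to WW in mouse 11.

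**Figure D5:**
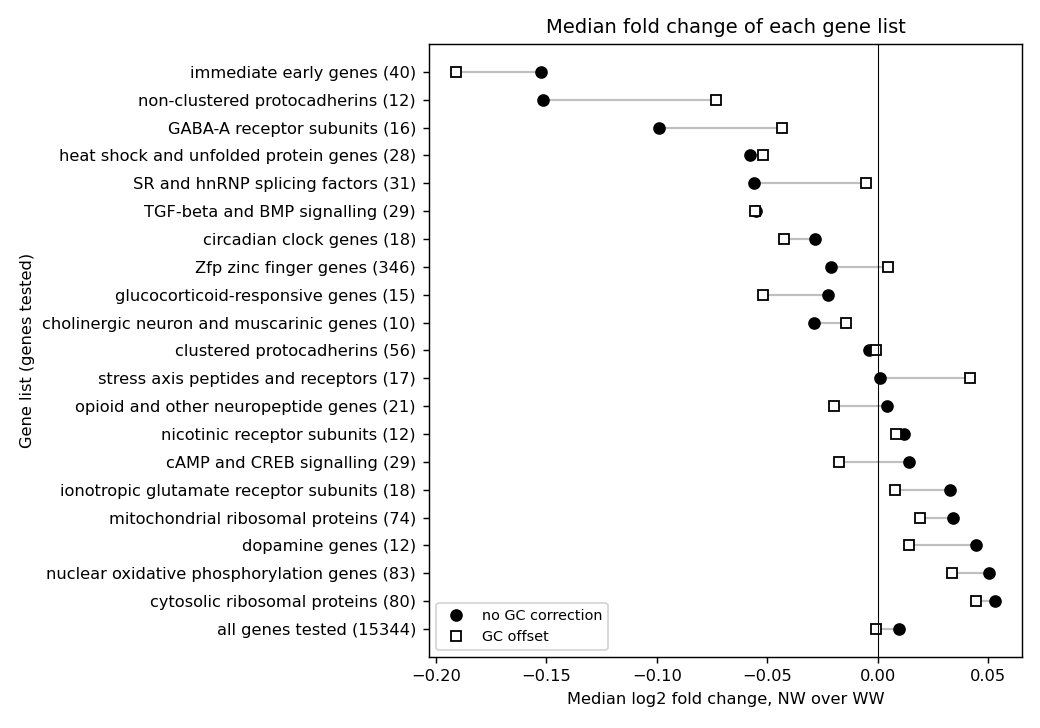
Median log2 fold change of NW over WW (x axis) in each gene list, with the number of genes tested in brackets (y axis), without correction (black) and with the GC offset (open squares), joined by a line. Immediate early genes stay low (-0.15 and -0.19), GABA-A receptor subunits move towards 0 (-0.10 to -0.04), and ribosomal and respiratory genes lie just above 0.

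Olfactory bulb markers were the 1 tissue list whose groups did not overlap. Their mean score was 0.239, 0.119, 0.171 and 0.0396 in the WW mice and -0.0645, -0.00729, 0.0189 and -0.516 in the NW mice, with mouse 11 far the lowest. The difference was -0.284 (p = 0.0286 by an exact two-sided permutation test, the smallest p possible, and adjusted 0.457 over 16 lists), or -0.160 without mouse 11. All 9 markers had a negative log2 fold change, against 46.4% of all genes. At unadjusted p under 0.05, 3 (33.3%) were lower and 0 higher, against 6.49% and 1.95% of all genes. Shisa3 had 214, 190, 220 and 183 normalized counts in WW and 120, 149, 169 and 116 in NW, without overlap. Sp8, a transcription factor of bulb interneurons, had 353 ± 21.5 and 250 ± 69.0, and Eomes, a factor of bulb projection neurons, 403 ± 60.1 and 336 ± 34.6 (SD, n = 4). The olfactory epithelium markers Omp and Stoml3 had means of 241 and 62.6 in WW and 140 and 35.2 in NW, with their highest values in WW mouse 20 and their lowest in NW mouse 11. Of 5 epithelium markers tested, only these 2 (40%) were lower at unadjusted p under 0.05, and 3 had a negative log2 fold change. The score of that list differed by -0.369 (p = 0.543, exact two-sided permutation test), and by 0.0152 without WW mouse 20. The part that the dissection of the bulb had in these values was not tested.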

How the data were processed

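Total RNA of 4 NW and 4 WW whole brains was sequenced as mRNA libraries. Per the submitters' processing notes and the study's methods, Trimmomatic 0.32 and TopHat2 (GRCm38) were used for trimming and alignment. The authors deposited raw read counts per gene and FPKM from Cufflinks, 1 column per mouse. How reads were counted, and whether by strand, is not given in the sources used here. The methods describe a stranded kit and the labels an unstranded one.

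Counts were tested with edgeR 4.0.16 (R 4.3.3; TMM factors, default low-count filter, quasi-likelihood test, Benjamini-Hochberg threshold 0.05) in the 8 mice alone. Normalized counts are scaled by the TMM factors. Transcript GC content and coding exons came from GENCODE for GRCm38 (22681 of 24062 genes matched by Ensembl ID and 680 by symbol). The GC offset was a spline with 6 degrees of freedom per mouse, and genes without a GC value were left uncorrected. Mouse-level values were compared by exact permutation tests, and correlations by 100000 resamples. Gene positions are those of the count table, and promoters and the miRNA are from RefSeq. Alternatives were other scaling factors, DESeq2 1.42.0, the likelihood-ratio test, limma 3.58.1 (voom, and log2(FPKM + 1) and log2(FPKM + 0.1) at a mean FPKM of at least 0.5), other filters, all 16 mice, covariates and leaving out mice. The fits were also tested on simulated data. Other steps used scipy 1.17.1, numpy 2.4.6 and pandas 2.3.3 under Python 3.11.15, with matplotlib 3.10.9 for plots.

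Genes were named by rule: those with the smallest p (8 in each direction, with and without the GC offset), the 3 largest non-overlapping changes in each direction, the 3 members of each list with the smallest p, nicotinic subunits, genes the study names for nicotine and defining markers. A few others are given beside these, and not every gene the rule names is reported here. The comparison, rule and lists were chosen with earlier results of these data known. The ethanol groups entered only where they or all 16 mice are named.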

Additional observations from a re-analysis of the deposited data

Results flagged for a closer look

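In groups of 4 mice, 1 value was set apart from the other 3 by Dixon's criterion in 22 of 230 groups examined, and chance gives about 1 in 20. Of these 10 were tissue marker scores. In WW they were the pituitary score of mouse 19 (0.551), the olfactory epithelium score of mouse 20 (1.34), the cerebellum score of mouse 21 (-1.39) and the blood score of mouse 18 (0.585). In NW they were the pituitary (2.12), cerebellum (-0.821) and astrocyte (-0.179) scores of mouse 10, the blood (0.498) and neuron (-0.0820) scores of mouse 7 and the olfactory bulb score of mouse 11 (-0.516). The GC slope of NW mouse 7 (0.121) stood apart from 0.00812 to 0.0255 in the other NW mice.

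Single genes gave the remaining values, as normalized counts. In WW mouse 21 Rpph1 had 45.5, Chrna3 105, Gabrb2 14770 and Atp5j2 1402, and in WW mouse 19 Slc35b2 had 565. Mouse 7 of NW had 330 for Igf1, 2069 for Prkar2b and 3789 for Pcdh17. Mouse 11 of NW had 699 for Rnf149, 10.9 for Chrna1 and 433 for Th.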

How the results depend on the processing

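The number of genes past the adjusted threshold depended on the test: 0 in the quasi-likelihood test, 123 with DESeq2, 113 with the likelihood-ratio test, 112 with all 16 mice and 2 (H3f3a and Ythdf3) with all 16 mice and the GC offset. Leaving out any 1 mouse gave 0. At unadjusted p under 0.05, 1295 genes became 808 with the GC offset, 886 to 1689 without 1 mouse, and 561 to 1168 with the offset and without 1 mouse. The lower share of these (76.9%) was 63.2% with upper quartile factors, 81.0% with DESeq2, 72.0% without a low-count filter, 73.7% with all 16 mice, 72.5% with the GC offset, 57.2% with the Rn45s covariate, 71.4% with the offset and all 16 mice, 74.5% with limma on log2(FPKM + 1), 68.7% without NW mice 7 and 10, 69.7 to 81.1% without 1 mouse and 67.5 to 72.6% with the offset and without 1 mouse. It stayed over 50% in every fit run. Leaving out Rn45s gave 1266 genes and leaving out WW mice 20 and 21 gave 1002. These fits without 2 mice or without Rn45s, and those with the offset and without 1 mouse, were chosen after seeing the data. The GC slope difference was 0.0565 to 0.0940 without 1 mouse, where p could not go below 0.0571, and the Rn45s difference 1.06 to 2.14. Differences of 3 marker scores turned without 1 mouse: pituitary (-0.229 without NW mouse 10, up to 0.661 without WW mouse 19), olfactory epithelium (0.0152 without WW mouse 20, down to -0.538 without NW mouse 8) and cerebellum (-0.299 without WW mouse 21, up to 0.437 without NW mouse 10). Rn45s turned to -1.55 on log2(FPKM + 1) and -2.38 on log2(FPKM + 0.1), where mouse 10 is listed at 0. Gabrg1, at -0.22, went to 0.000189 and 0.0275 with the GC offset and without NW mouse 8 or 10, and its lowest value without 1 mouse was -0.28 (without NW mouse 11). The causes of the other changes were not tested. Of 88 genes whose fold change was recomputed, Rn45s and Gabrg1 turned, and 63 further values passed the adjusted threshold under DESeq2, the likelihood-ratio test or all 16 mice. Another 10 genes, given by means alone, are not in that number, and 4 of them changed sign with the GC offset: Th (0.05 to -0.0011), Lynx1 (0.06 to -0.0030), Chrnb3 (-0.02 to 0.02) and Chrna10 (0.00 to -0.05). No paired analysis was possible because the groups share no replicate numbers.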

Other observations

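Glial and vascular markers stood close to the water level. At unadjusted p under 0.05, 1 of 10 microglial markers was lower in NW, P2ry12, a purine receptor of resting microglia, with 1047 ± 118 normalized counts in WW and 876 ± 32.5 in NW (SD, n = 4) and no overlap. Its transcript is AT-rich (40.6% GC), and it was not under the unadjusted threshold with the GC offset. Of 9 oligodendrocyte markers 1 was lower, the tight junction gene Cldn11 (8151 ± 895 and 7046 ± 137). Among 8 astrocyte, 8 endothelial, 5 ependymal and 9 neuronal markers 0 passed it.

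Further gene families are set beside the 6.49% lower and 1.95% higher of all genes at unadjusted p under 0.05. Ephrins and Eph receptors had 2 of 22 (9.09%) lower (Epha5 and Epha3) and 0 higher. Kinesins had 3 of 33 (9.09%) lower and 1 (3.03%) higher. Ubiquitin-specific proteases had 2 of 47 (4.26%) lower and 1 (2.13%) higher, and replication-dependent histones 0 of 10 in either direction. Of 169 lincRNA genes 7 (4.14%) were lower and 3 (1.78%) higher. Of 142 antisense genes 2 (1.41%) were lower and 3 (2.11%) higher. The lincRNA gene AI504432 had 2235, 2104, 2118 and 2123 normalized counts in WW and 1329, 1684, 1740 and 1856 in NW, without overlap. Its transcript is poor in GC (34.1%), and NW mouse 7, with the steepest GC slope, was the lowest.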
